A study of Homo sapiens with 21 samples.

Results

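Gene levels are described in unperturbed THP1 cells, a human acute myeloid leukaemia line that grows in suspension and is widely used as a model of the monocyte. The members are 5 control libraries, out of 19 libraries in the study's table of normalized gene values, and were taken by name as the columns headed Control. Of the 21 libraries that the labels describe, 2 controls (WT replicate 1 and shRNA Control replicate 2), which carry a low-quality mark, were not analysed here. The study set such controls against cells with a knockdown of IRF2BP2 or a knockout of ATF7 or JDP2, and none of those libraries enters any value below.

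The controls are of 3 kinds. KO Control has 2 libraries (replicates 1 and 2) and belongs to the arm made with Lenti-CRISPRv2 constructs. shRNA Control has 2 libraries (replicates 1 and 3) and belongs to the arm made with hairpins in the pLKO.1 vector. WT has 1 library (replicate 2), with no vector named. The labels do not say which guide or hairpin the controls carry, and they name single-cell cloning without saying whether KO Control is a clone. All cells were grown in RPMI with GlutaMAX, FBS, penicillin and streptomycin, and messenger RNA libraries were made from DNase-treated total RNA. The labels do not say whether replicates are separate cultures, so the spread given here is that between libraries and may be technical. Reads in genes numbered 36279264 and 49816700 in KO Control, 36842892 and 35252015 in shRNA Control and 34285267 in WT. Every value is a normalized count, the reads of a gene divided by 1 size factor per library. Levels of different genes are compared per kilobase of exon. Means in normalized counts, and the counts of genes past a mean, also depend on gene length. A percentile is that of the mean normalized count per kilobase among the 20244 genes with a known exon length.

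Monocytes arise from bone marrow progenitors through a shared granulocyte and monocyte stage that is directed by the transcription factors PU.1, encoded by SPI1, and C/EBP alpha. Promyelocytes at that stage fill their primary granules with serine proteases, lysozyme and myeloperoxidase, and mature monocytes display CD14, Fc receptors and class II histocompatibility molecules. THP1 carries a fusion of KMT2A with MLLT3, and leukaemias with KMT2A fusions are known for high levels of HOXA genes and MEIS1.

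Stretches just upstream of 4 gene starts are shown because these genes stand at opposite ends of the range of levels described below. PRTN3 and AZU1 encode primary granule proteins, MCM2 encodes a subunit of the replicative helicase, and ALB encodes the serum albumin of the liver. Capitals mark a match to GAGGAAGT, a core sequence that PU.1 can bind, or to GGGCGG, the GC box that Sp1 can bind, on either strand (GGGCGG on the opposite strand reads CCGCCC). The sequences are from RefSeq (GRCh38.p14) and run 5′ to 3′ on the strand of the gene. A match describes the letters only, and the stretch of CTSG, a further primary granule gene that is not shown, held none.
PRTN3 (chr19:840879-840998, plus strand): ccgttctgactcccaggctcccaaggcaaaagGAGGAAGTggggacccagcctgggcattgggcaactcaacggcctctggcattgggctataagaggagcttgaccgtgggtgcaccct
AZU1 (chr19:827717-827836, plus strand): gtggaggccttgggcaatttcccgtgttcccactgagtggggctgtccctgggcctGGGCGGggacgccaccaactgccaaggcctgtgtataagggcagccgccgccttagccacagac
MCM2 (chr3:127598291-127598410, plus strand): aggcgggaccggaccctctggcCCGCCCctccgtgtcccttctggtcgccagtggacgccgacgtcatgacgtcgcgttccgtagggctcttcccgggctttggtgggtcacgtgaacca
ALB (chr4:73404167-73404286, plus strand): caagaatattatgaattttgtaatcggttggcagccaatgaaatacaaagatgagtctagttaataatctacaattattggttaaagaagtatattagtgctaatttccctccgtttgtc

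Before levels are read, 2 libraries are set apart. In shRNA Control replicate 1, 68 genes had at least 20 normalized counts and stood over 5-fold above every other control (with 1 added to the others). The same rule, chosen after the values were seen, took 0 genes in KO Control replicate 1, 25 in KO Control replicate 2, 1 in shRNA Control replicate 3 and 1 in WT. The 68 genes had a median of 97.5 normalized counts in shRNA Control replicate 1, against medians of 2.17 and 9.87 in KO Control, 0 in shRNA Control replicate 3 and 2.12 in WT. NTRK2, a neurotrophin receptor, led them with 536 in shRNA Control replicate 1, against 0 and 10.5 in KO Control, 1.87 in shRNA Control replicate 3 and 2.12 in WT. EGFR, the epidermal growth factor receptor, had 212 there and at most 10.5 in any other control. The receptor kinase gene ALK had 233 there and at most 21.7 elsewhere. FOXA1, a transcription factor of glandular epithelia, had 31.8 there and at most 2.63 elsewhere. The set held 21 of 55 receptor tyrosine kinase genes (38.2%), against 0.333% of all genes. That list of kinases was made after the set was seen, so that this count is a description. Levels within the set followed coding length, with a Spearman coefficient of 0.82 over 68 genes that share 1 library. All 68 together held 0.0223% of the counts of that library. The origin of these reads was not tested.

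KO Control replicate 2 stood apart in another way. It had at least 1 read in 18490 genes, against 15123 in KO Control replicate 1, 15115 and 14620 in shRNA Control and 16063 in WT. It alone had reads of 1286 genes, with a median of 4 and a maximum of 48 reads, whereas 68 genes were read in KO Control replicate 1 alone, 64 and 41 in a single shRNA Control library and 103 in WT alone. It was also the deepest library, and the part of depth in this was not tested. CSMD3, a large gene of the nervous system, had 37.5 normalized counts there and at most 4.24 elsewhere. Levels of genes with few reads are therefore given by library below where 1 of these libraries decides them.

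**Figure D1:**
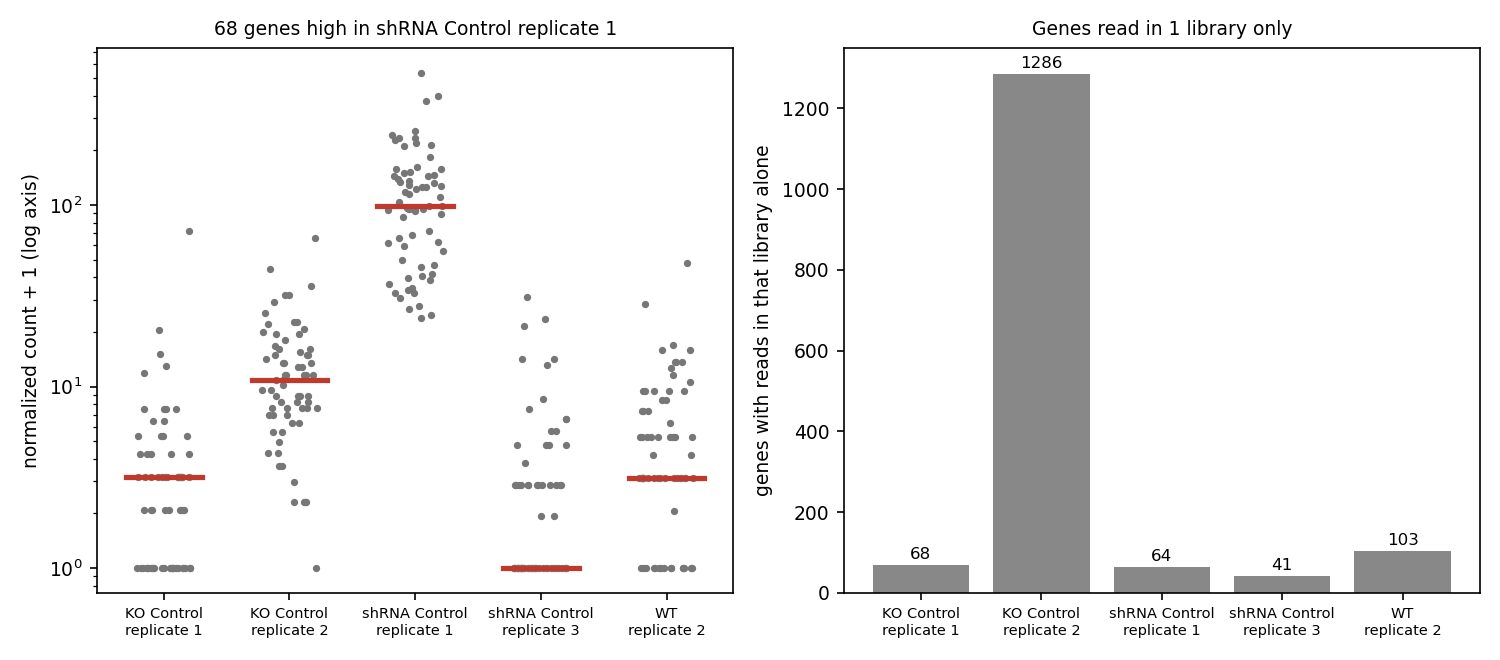
Left, normalized count + 1 (log axis) of the 68 genes in each control library, with a point for each gene and a red line at the median, which is 97.5 + 1 in shRNA Control replicate 1 and at most 9.87 + 1 in the others. Right, number of genes read in 1 control library alone, which was 1286 in KO Control replicate 2 and 41 to 103 in the others.

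The cell label was checked against 4 markers given for THP1. SPI1, which encodes the myeloid master regulator PU.1 (chr11:47354860-47378576, minus strand, GRCh38), had 12227 and 7155 in KO Control, 11976 and 9684 in shRNA Control and 12899.6 in WT. KO Control replicate 2 was the lowest of the 5 and WT the highest, and the mean of 5214 ± 1143 per kilobase (SD, n = 5) lay at percentile 98.8. CD33, a sialic acid receptor of myeloid cells (chr19:51225064-51243860, plus strand), had 1658 and 1282 in KO Control, 1489.8 and 1277 in shRNA Control and 1267 in WT. KO Control replicate 1 was the highest for CD33, followed by shRNA Control replicate 1, and the other 3 lay close together. The mean of 233 ± 29.2 per kilobase lay at percentile 74.0. LYZ, which encodes lysozyme (chr12:69348341-69354234, plus strand), had 32252 and 23936 in KO Control, 12310.2 and 19540.5 in shRNA Control and 76328 in WT. WT stood far above the rest for LYZ and shRNA Control replicate 1 was the lowest, and the mean of 18636 ± 14367 per kilobase lay at percentile 99.7. MPO, which encodes myeloperoxidase (chr17:58269856-58280935, minus strand), had 18.5 and 26.3 in KO Control, 27.9 and 18.7 in shRNA Control and 36.0 in WT. MPO went against the marker list, since it was low in every library and its mean of 7.23 ± 2.07 per kilobase lay at percentile 43.6.

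Some genes that mature monocytes are known for were low as well, whereas FCN1 and S100A9, given below, lay at percentiles 87.1 and 96.2. CD14, the co-receptor for lipopolysaccharide, had 16.3 and 7.90 in KO Control, 5.97 and 3.75 in shRNA Control and 8.48 in WT. HLA-DRA, the alpha chain of HLA-DR, had 0 and 2.63 in KO Control, 1.99 and 5.62 in shRNA Control and 0 in WT. THP1 is also reported to lack CDKN2A, the gene of the cell cycle inhibitor p16. CDKN2A had 7379 and 5549.9 in KO Control, 8077 and 5791 in shRNA Control and 7353 in WT, so it was read abundantly in all 5 libraries, at percentile 94.5. Its neighbour CDKN2B, of the related inhibitor p15, had a mean of 168 ± 37.6 normalized counts. The labels name THP1 for every library, and the identity of the line was not tested. It is called THP1 here by that label, with SPI1, CD33 and LYZ read at means over 1000 normalized counts and MPO, CD14 and HLA-DRA low.

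Expression was concentrated in a small part of the table. The 10 genes with the highest means held 6.97% of all normalized counts, the highest 100 held 22.7%, the highest 1000 held 55.9%, and 740 genes made up 50% of the total. A mean of at least 1000 was reached by 5900 of 20423 genes (28.9%), a mean of at least 100 by 10300 (50.4%), and 8063 genes (39.5%) had a mean under 10. ACTB, the cytoplasmic actin, had the highest mean in normalized counts, with 444721 and 338798 in KO Control, 364690 and 299492 in shRNA Control and 372649 in WT. Per kilobase the highest level was that of MT-ND4, a subunit of respiratory complex I encoded in mitochondrial DNA, at 258492 ± 78372 (SD, n = 5), against 103458 ± 15162 for ACTB. MT-ND4 had 265814 and 365538 in KO Control, 227858 and 461398 in shRNA Control and 460401 in WT. The shRNA Control libraries held both the lowest and the highest value of MT-ND4, so the kinds overlapped. The 13 mitochondrially encoded genes took 2.42% and 4.11% of counts in KO Control, 2.64% and 5.57% in shRNA Control and 5.08% in WT. The other highest means in normalized counts belonged to the elongation factor EEF2, the oxidase subunit MT-CO1, the ribosomal protein genes RPS2, RPL13A, RPLP1, RPL8, RPL13 and RPL3, the actin crosslinker FLNA, the chromatin protein PTMA, the second cytoplasmic actin ACTG1, the endoplasmic reticulum proteins P4HB and CALR, and the glycolytic enzymes PKM and ENO1. Their means lay between 101459 (ENO1) and 289155 (EEF2) normalized counts.

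**Figure D2:**
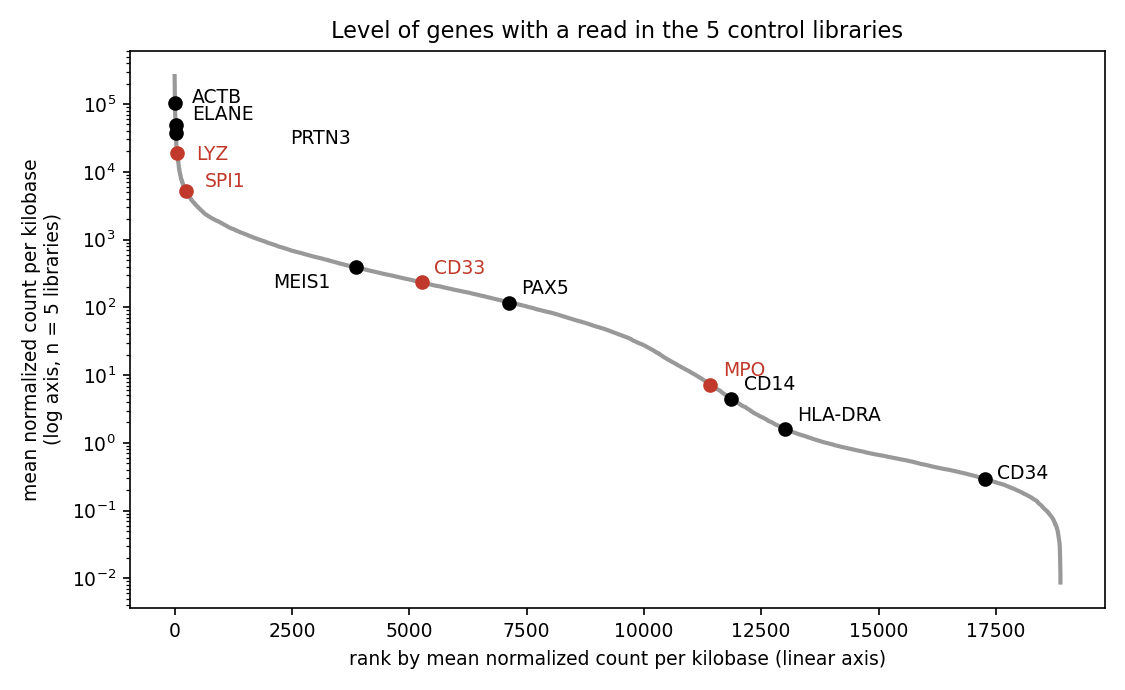
Mean normalized count per kilobase (log axis, n = 5 libraries) against rank (linear axis) for genes with a length and at least 1 read, with the 4 given markers in red. LYZ and SPI1 lie at the steep left end (percentiles 99.7 and 98.8), CD33 lies further down the slope (74.0), and MPO (43.6) lies well to the right of it.

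Primary granule genes were among the most abundant lineage genes. Of 14 listed, 12 had a mean of at least 1000 normalized counts, where 28.9% of all genes did. ELANE, which encodes neutrophil elastase, had 27079 and 17262 in KO Control, 91739.7 and 62173 in shRNA Control and 57246 in WT. Both KO Control libraries lay below the other 3. PRTN3, which encodes the related proteinase 3, had 25886 and 19943 in KO Control, 73674 and 45812 in shRNA Control and 46864 in WT. AZU1, which encodes azurocidin, had 16175 and 11374 in KO Control, 28633 and 35996 in shRNA Control and 24010 in WT. ELANE, PRTN3 and AZU1 neighbour each other on chromosome 19, and for all of them both KO Control libraries were the lowest. CTSG, which encodes cathepsin G on chromosome 14, had 28024 and 20008 in KO Control, 34043 and 18888 in shRNA Control and 21977 in WT, and its kinds of control overlapped. Per kilobase, ELANE stood at 49708 ± 28914, PRTN3 at 37029.5 ± 18442, LYZ at 18636 ± 14367, CTSG at 17895 ± 4624 and AZU1 at 13033 ± 5489 (SD, n = 5). Neighbours in that order differed by less than the larger of their SDs. SRGN, the proteoglycan that packs granule proteins, stood at 10343 ± 3871 per kilobase, and RNASE2, an antiviral ribonuclease, at 2474 ± 1262. CTSD, a lysosomal protease, had a mean of 70200 ± 14966 normalized counts, but 51.7% of the 100-base windows of its longest transcript also occur in a transcript of another gene, so its level is uncertain. MPO was the lowest member, at 7.23 ± 2.07 per kilobase.

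Granule genes were also uneven between libraries. Steadiness is read here from the coefficient of variation (CV) over the 5 libraries among genes with a mean of at least 100, and a gene is called steady with a CV under 20%. Of 13 primary granule genes that high, 1 was steady, the lysosomal protease CTSB with a CV of 15.4%, where 48.2% of all such genes were steady. A CV over 50% was found for 4 of the 13, ELANE, LYZ, RNASE2 and RNASE3, where 2.12% of all such genes had one. Genes listed for the later, specific granules were much lower, with 0 of 15 at a mean of 1000 and 9 under 10, where 28.9% and 39.5% of all genes were. That list was mixed, since it held DEFA1, a defensin gene of primary granules. DEFA1 was listed at 0 with 100% of its windows shared with another gene. The contrast between the lists therefore depends in part on where genes were listed. MMP9, a gelatinase, stood at 205 ± 115 per kilobase, and CAMP, the precursor of an antimicrobial peptide, at 167 ± 99.9. LTF, which encodes lactoferrin, had 0 and 5.27 in KO Control, 0 and 3.75 in shRNA Control and 8.48 in WT.

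Monocyte genes covered a wide range of levels. Of 25 listed, 6 had a mean of at least 1000 (28.9% of all genes did), 9 were under 10 (39.5% of all genes were) and 4 of 13 with a mean of at least 100 were steady (48.2% of all such genes were). The first 2 counts are near the shares of all genes. CD4, which monocytes share with helper T cells, was the steadiest member, with 5573 and 6153 in KO Control, 5060.4 and 4919 in shRNA Control and 4940.4 in WT. FCN1, which encodes the secreted lectin ficolin, had 2951 and 2298 in KO Control, 3312 and 2565 in shRNA Control and 5100.5 in WT, and was highest in WT. S100A9, a subunit of calprotectin, had 2962 and 874 in KO Control, 388 and 553 in shRNA Control and 1363 in WT. KO Control replicate 1 was the highest and both shRNA Control libraries the lowest for S100A9, and the CV was 84.6%. Its partner S100A8 had 34.8 and 19.1 in KO Control, 1.99 and 18.7 in shRNA Control and 29.7 in WT, which is low beside S100A9 per kilobase (20.7 ± 12.5 against 2128 ± 1799.6). CSF1R, the receptor of the main monocyte growth factor, had 193 and 168 in KO Control, 156 and 143 in shRNA Control and 137 in WT. CSF1R was low but even, with a CV of 14.1%. The scavenger receptor gene CD163 had a mean of 9.13 ± 4.78 normalized counts, and the Fc receptor gene FCGR3A was read in KO Control replicate 2 only, at 2.63. CD68, the lysosomal marker of macrophages, had a mean of 3483 ± 1424, but 89.5% of its windows are shared with another gene.

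Most markers of other cell types were near the floor, with some exceptions that held in all 5 libraries. In bulk RNA, few cells with a high level and many cells with a low level cannot be told apart. Of 14 T cell genes 0 reached a mean of 100, where 50.4% of all genes did, CD3D was listed at 0 in every library, and CD3E, CD3G and CD8A had means under 1. The summed level of the T cell genes was 191.3 and 196.8 in KO Control, 209 and 172.4 in shRNA Control and 163.2 in WT, and the highest members per kilobase were the receptor constant region gene TRAC at 21.8 ± 8.32 and the regulatory T cell factor FOXP3 at 15.9 ± 3.93.

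B cell genes were read in part. Of 13 listed, 5 had a mean of at least 100 (50.4% of all genes did) and 6 were under 10 (39.5% of all genes were). PAX5, the factor that commits cells to the B lineage, had 1480.1 and 1077 in KO Control, 913 and 732 in shRNA Control and 1293 in WT. CD79A, a signalling chain of the B cell receptor, had 599 and 413 in KO Control, 387 and 371 in shRNA Control and 234 in WT. KO Control replicate 1 was the highest and WT the lowest for CD79A. MS4A1, which encodes CD20, was read in KO Control replicate 2 only, at 7.24, and VPREB1, a surrogate light chain gene, there only at 1.32. IGLL1, the other surrogate light chain gene, had 30.4 and 65.8 in KO Control, 925 and 166 in shRNA Control and 306 in WT, and shRNA Control replicate 1 was far above the rest.

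Single genes of other lineages were high, while most members of their lists had a mean under 100. NKG7, a membrane protein of killer cell granules, had 16156 and 12181 in KO Control, 17034 and 11719.8 in shRNA Control and 16082 in WT. The other natural killer genes had means of at most 13.4 (KLRF1), and NCR1 was listed at 0. TPSAB1, the tryptase of mast cells, had 10729 and 6196 in KO Control, 5119 and 9577 in shRNA Control and 15754 in WT, but 62.1% of its windows are shared with another gene. Of 8 mast cell and basophil genes 2 had a mean of at least 100, where 50.4% of all genes did, and 3 were under 10. GATA2, a factor that mast cells share with blood progenitors, had 206 and 154 in KO Control, 414 and 337 in shRNA Control and 324 in WT. CPA3 had 9.22 in KO Control replicate 2 and at most 2.12 elsewhere, and HDC had a mean of 1.63 ± 1.58. Among erythroid genes the erythropoietin receptor EPOR (615 ± 177) and the factor KLF1 (193 ± 74.9) were read in every library, whereas GATA1 had 2.77 ± 2.56, and GYPB, HBG1 and HBG2 were listed at 0. Of the platelet genes GP1BA was the highest per kilobase at 15.3 ± 1.58 and PF4 was listed at 0. The lists for epithelium (8 genes), stroma (9), endothelium (7), liver (8) and pluripotent cells (6) had 0 members at a mean of 100. Of all genes 50.4% reached that mean, and these lists are small. The sums of the endothelial and the liver genes stood apart in the libraries named above. The 7 endothelial genes summed to 8.69 and 85.6 in KO Control, 404 and 19.7 in shRNA Control and 42.4 in WT. The 8 liver genes summed to 18.5 and 91.5 in KO Control, 8.96 and 6.56 in shRNA Control and 22.3 in WT. Other lists depended on these libraries as well. The median level of the stromal genes was 22.09, and 7.778 without shRNA Control replicate 1. That of the epithelial genes was 4.703, and 1.184 without KO Control replicate 2 and shRNA Control replicate 1. SYP, a gene of synaptic vesicles, had 96.7 and 88.9 in KO Control, 216 and 204 in shRNA Control and 230 in WT.

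**Figure D3:**
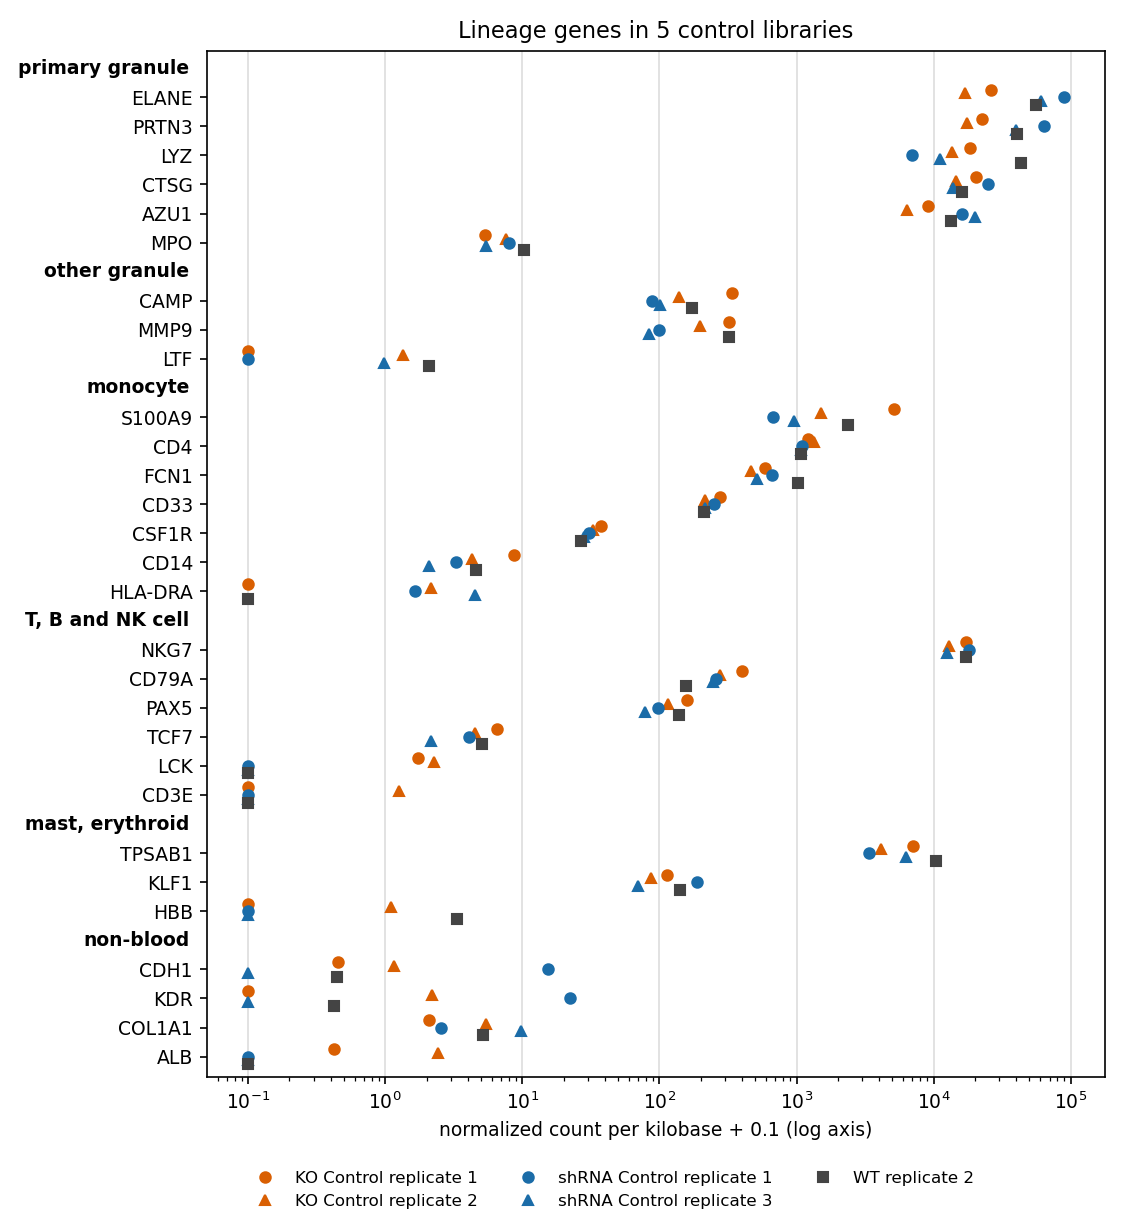
Normalized count per kilobase + 0.1 (log axis) of lineage genes, with 1 point for each of the 5 control libraries; a point at 0.1 is a listed 0. ELANE (49708 on average), NKG7 (15652) and TPSAB1 (6266) stand at the right, MPO (7.23) and CD14 (4.5) far to the left of them, and CD3E and ALB below 1.

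Myeloid transcription factors were high. Of 33 listed, 18 had a mean of at least 1000, where 28.9% of all genes did, and 4 were under 10. CEBPA, which directs granulocyte and monocyte fate, had 27901 and 17715 in KO Control, 34397 and 22789 in shRNA Control and 23863 in WT. Its mean of 9629 ± 2369 per kilobase was followed by SPI1 at 5214 ± 1143, the progenitor factor LYL1 at 4630.2 ± 1473, CEBPB at 3879 ± 1361 and the repressor GFI1 at 3764 ± 1065. These neighbours differed by less than the larger of their SDs, apart from CEBPA and SPI1. MYB, which keeps progenitors dividing, had 11789 and 12159.6 in KO Control, 11206 and 13644 in shRNA Control and 15164 in WT, with WT highest. IRF8, which favours monocytes over granulocytes, had 2918 and 2935 in KO Control, 5257 and 5332 in shRNA Control and 6147 in WT. Both KO Control libraries were the lowest for IRF8 and close to each other. Factors of later monocytes and macrophages were lower, with KLF4 at 118 ± 30.5 per kilobase, EGR1 at 39.6 ± 24.1 and EGR2 at 5.15 ± 1.10. CEBPD, which mature monocytes express, had a mean of 5.0 ± 1.26 normalized counts, and TAL1 and GFI1B, factors of the erythroid and platelet lineages, had at most 3.75 and 11.7 in any control. IRF4 had 58.7 in shRNA Control replicate 1, where it belongs to the 68 genes, and at most 10.5 elsewhere.

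Leukaemia genes were led by MYC, which drives growth and ribosome production, with 35668 and 22473 in KO Control, 31524 and 20178 in shRNA Control and 24275 in WT. KO Control replicate 1 and shRNA Control replicate 1 were the highest. In the HOXA cluster HOXA10 stood first, at 2215 ± 207 per kilobase, with 9314 and 7339 in KO Control, 8203 and 7679 in shRNA Control and 8523 in WT. It was steady, with a CV of 9.35%. HOXA11 followed at 1375 ± 243 per kilobase, HOXA9 at 803 ± 147 and HOXA13 at 598 ± 184, and these neighbours differed by more than the larger of their SDs. HOXA9, the usual companion of MEIS1 in leukaemia, had 2155 and 1938 in KO Control, 2282 and 3004 in shRNA Control and 2782 in WT, with both KO Control libraries lowest. HOXA2 and HOXA7 had means of 15.5 ± 4.04 and 109 ± 29 normalized counts. MEIS1 had 3477 and 5084 in KO Control, 3683 and 5259.7 in shRNA Control and 3658 in WT. KO Control replicate 2 and shRNA Control replicate 3 were the highest for MEIS1. KMT2A and MLLT3, the partners of the known fusion, had means of 847 ± 199 and 275 ± 35.1, and reads of a fusion cannot be told from those of the separate genes in this table. FLT3, a receptor kinase of blood progenitors, had 8.69 and 42.8 in KO Control, 142 and 32.8 in shRNA Control and 12.7 in WT. KIT, the stem cell factor receptor, had 4.35 and 28.3 in KO Control, 150.3 and 22.5 in shRNA Control and 14.8 in WT. For FLT3 and KIT shRNA Control replicate 1 stood far above the others. CD34 and MECOM, further genes of stem cells, had 9.22 and 7.24 in KO Control replicate 2 and at most 2.17 and 2.12 in any other control.

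The HOXB and HOXD clusters were nearly unread apart from HOXD12, and the HOXC cluster was read in part. Of 28 genes of the HOXB, HOXC and HOXD clusters, 20 had a mean under 10, where 39.5% of all genes did, and HOXB1 was listed at 0. Besides HOXD12, the genes at a mean of 10 or more lay in the HOXC cluster. HOXC4 had 559 and 581 in KO Control, 1259.9 and 1536 in shRNA Control and 1290 in WT, with both KO Control libraries below the other 3. HOXC10 had a mean of 639 ± 97.1 and HOXC6 of 314 ± 51.5, and both were steady.

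Further transcription factor families were described the same way. Of 13 STAT and NF-kB genes, 9 had a mean of at least 1000, where 28.9% of all genes did, and 7 of 12 with a mean of at least 100 were steady, where 48.2% of all such genes were. STAT3, which carries the signal of interleukin 6, was the steadiest of them, with 3277 and 3349 in KO Control, 2913 and 3105 in shRNA Control and 3363 in WT. STAT4 had a mean of 11.9 ± 18.3, of which 43.8 in shRNA Control replicate 1. Of 30 basic leucine zipper genes listed, 0 were under 10 and 17 were at 1000 or more, against 39.5% and 28.9% of all genes. CEBPD and MAF, low genes of the same family (percentiles 37.9 and 12.3), were not counted among them. The 0 therefore depends on which genes were listed. Apart from the C/EBP genes given above, ATF4, the effector of the amino acid response, stood at 6475 ± 1367 per kilobase. It was followed by BATF at 3589 ± 1144, the stress factor XBP1 at 3559 ± 1133 and JUNB at 2791 ± 1056. BATF, XBP1 and JUNB did not differ beyond their SDs. FOS and FOSB, early partners of JUN, stood lower at 59.5 ± 20.1 and 32.6 ± 14.3. Of the genes that the study targets, IRF2BP2, a transcriptional cofactor, stood at 3799 ± 501 per kilobase (percentile 98.2) with a CV of 13.2%. JDP2 stood at 643 ± 156 (percentile 86.9) and its possible partner ATF7 at 48.4 ± 17.0 (percentile 54.9) with a CV of 35.2%. Of 21 nuclear receptor genes the orphan receptor ESRRA stood at 1291 ± 385 per kilobase and RXRA, the shared partner of the family, at 961 ± 278, and these differed by less than the larger SD. PPARG, a regulator of macrophage lipid handling, had a mean of 172 ± 49.6 normalized counts. Of 21 ETS genes 9 of 14 with a mean of at least 100 were steady, where 48.2% of all such genes were, among them FLI1 at 925 ± 84.1 per kilobase, while SPIB and SPIC, the nearest relatives of PU.1, had at most 7.96 and 2.17 normalized counts in any control.

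Receptors for growth factors and interleukins were read at moderate levels. Of 25 listed, 5 had a mean of at least 1000 and 8 of 16 with a mean of at least 100 were steady, near the 28.9% and 48.2% of all genes. IL6R, the interleukin 6 receptor, had 13652 and 9789 in KO Control, 10911 and 9292 in shRNA Control and 9714 in WT, at 1654 ± 274 per kilobase. CSF3R, the receptor of granulocyte colony-stimulating factor, had 7358 and 5774 in KO Control, 9924 and 7357 in shRNA Control and 6424 in WT. CSF2RB, the beta chain shared by the receptors for GM-CSF and interleukin 3, had 2153 and 1215 in KO Control, 1963 and 1302 in shRNA Control and 2011 in WT. Its alpha chain partners CSF2RA and IL3RA were listed at 0 in every library. Both lie in the pseudoautosomal region of chromosome X, where 16 of 19 genes of the table were listed at 0, among them SLC25A6, a mitochondrial carrier that cells use widely. All of their windows occur a second time in the annotation, so such a 0 is not read as a level.

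Receptors for tumour necrosis factors and interferons were among the steadier groups, with 8 of 12 at a mean of at least 100 steady, against 48.2% of all such genes. TNFRSF1A and TNFRSF1B, the receptors of tumour necrosis factor, stood at 2826 ± 790 and 2158 ± 513 per kilobase and did not differ beyond their SDs. IFNAR1, a chain of the type I interferon receptor, had 2239 and 2359.9 in KO Control, 2118 and 2256 in shRNA Control and 2267 in WT. Its CV of 3.85% was the lowest of the group. CD40 had at most 7.42 in any control.

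Receptors for microbes were few. Of 12 Toll-like receptor genes and partners, 9 had a mean under 10, where 39.5% of all genes did. TLR4, the lipopolysaccharide receptor, had 478 and 785 in KO Control, 581 and 705 in shRNA Control and 599 in WT. TLR2, the receptor for bacterial lipoproteins, had 169.5 and 242 in KO Control, 155 and 236 in shRNA Control and 158 in WT. For both, KO Control replicate 2 was the highest and shRNA Control replicate 3 the second. LY96, which encodes the MD-2 partner of TLR4, had 4.35 and 5.92 in KO Control, 1.99 and 8.43 in shRNA Control and 8.48 in WT. Of the endosomal receptors TLR3 had a mean of 1.35, and TLR7 had 9.87 in KO Control replicate 2, 7.96 in shRNA Control replicate 1 and 0 elsewhere. TLR9 had at most 4.24 in any control, but 83.1% of its windows are shared with another gene, and its reads may be split with that gene. TLR8 had 14.5 in KO Control replicate 2 and at most 2.12 elsewhere. Among Fc receptors FCGRT, which recycles antibodies, stood at 1762 ± 379 per kilobase and FCGR1A, the high-affinity receptor for immunoglobulin G, at 65.0 ± 13.5. FCER2, the low-affinity receptor for immunoglobulin E, had 127 and 194 in KO Control, 231 and 367 in shRNA Control and 1198 in WT. CD36, a scavenger receptor for lipids, had 92.4 and 52.7 in KO Control, 79.6 and 114 in shRNA Control and 456 in WT. WT was the highest by far for FCER2 and CD36.

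**Figure D4:**
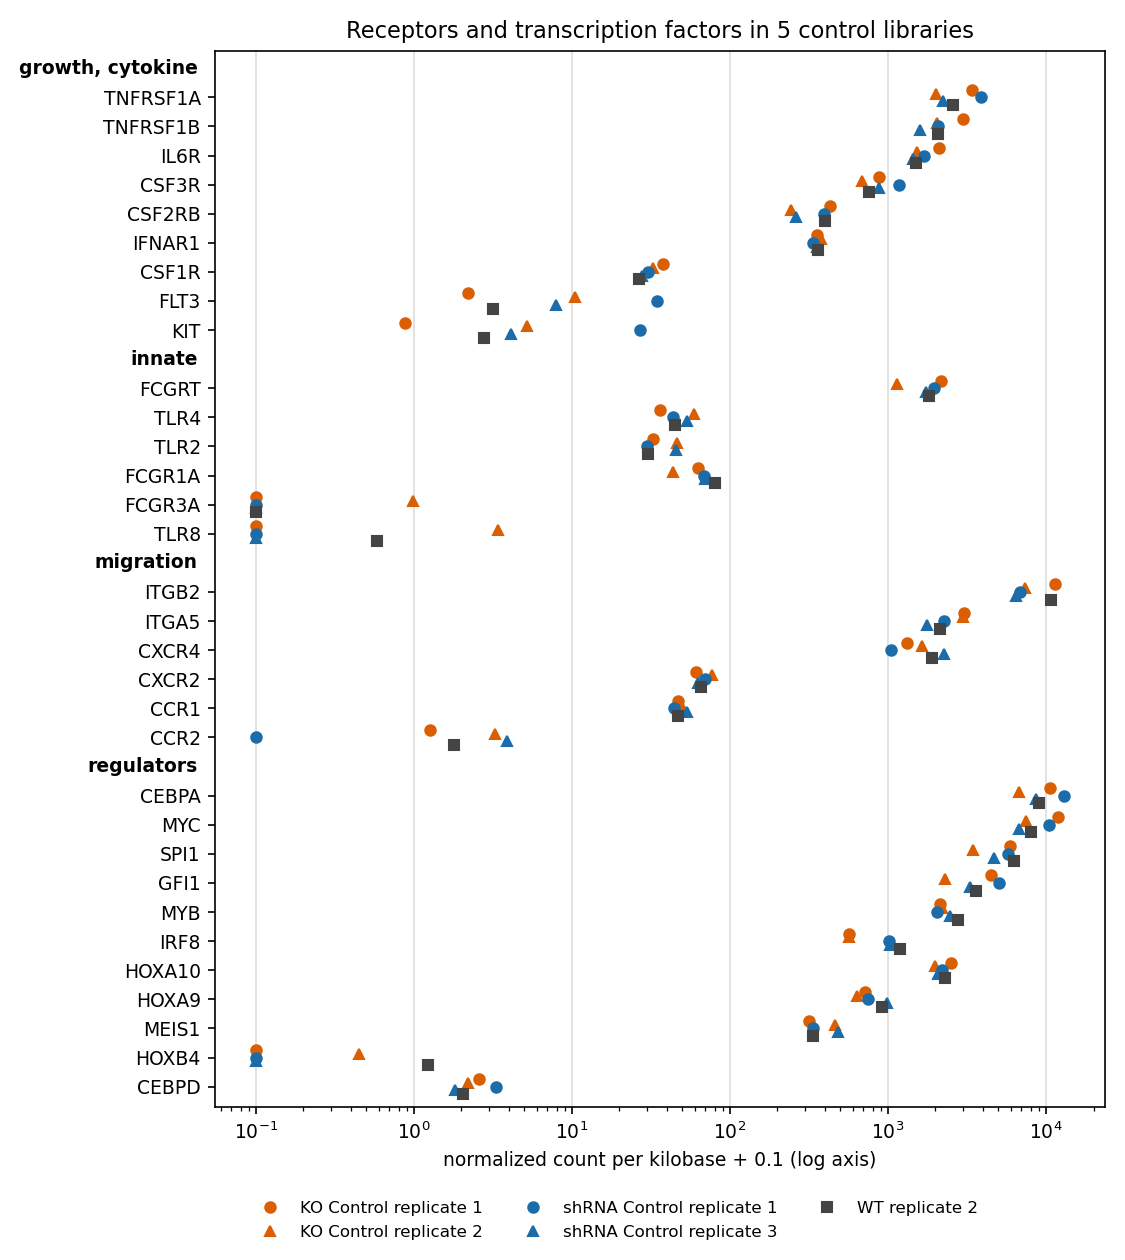
Normalized count per kilobase + 0.1 (log axis) of receptor and transcription factor genes, with 1 point for each of the 5 control libraries; a point at 0.1 is a listed 0. Points of IFNAR1 (CV 3.85%) and CCR1 (CV 7.12%) lie close together, those of FLT3 and KIT are spread with shRNA Control replicate 1 at the right, and FCGR3A has 1 point above 0.1.

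Receptors for adhesion were led by ITGB2, the beta chain of the leukocyte integrins, with 77389 and 50027 in KO Control, 46701 and 43718 in shRNA Control and 73406 in WT. Its alpha partners were lower, with ITGAL at 341 ± 102 per kilobase, ITGAM at 142 ± 50.6 and ITGAX at 118 ± 51.0, against 8569.7 ± 2336 for ITGB2. ITGA5 and ITGB1, the fibronectin receptor pair, stood at 2437 ± 552 and 857 ± 134. Of 19 chemokine receptor genes 13 had a mean under 10, where 39.5% of all genes did. CXCR4, which retains cells in the marrow, had 2923 and 3659 in KO Control, 2317 and 5010.4 in shRNA Control and 4219 in WT, with shRNA Control replicate 3 highest. CCR1, a receptor for inflammatory chemokines, was steady with 127 and 133 in KO Control, 121 and 146 in shRNA Control and 128 in WT. CCR2, the receptor of classical monocytes, had a mean of 7.32 ± 5.68.

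Among G protein-coupled receptors the sphingosine phosphate receptor S1PR4 stood at 2350.3 ± 653 per kilobase and the ATP receptor P2RY2 at 922 ± 182. The formyl peptide receptor gene FPR1 had a mean of 4.93 ± 4.82 normalized counts, and C5AR1, the receptor of complement C5a, of 132 ± 51.1. Among paired immune receptors SIRPA, which reads CD47 on other cells, stood at 2912 ± 646 per kilobase. SIGLEC12 and SIGLEC6, of the family of CD33, stood at 1621 ± 362 and 1080.4 ± 228, above CD33 by more than their SDs. SIGLEC9 had 42.4 and 20.4 in KO Control, 0 and 0 in shRNA Control and 12.7 in WT, and was highest in KO Control replicate 1. Among lectins LGALS1 (galectin 1) stood at 21209 ± 5533 per kilobase and CLEC11A, a haematopoietic growth factor, at 14556 ± 2617, while CLEC7A, the receptor for fungal beta-glucan, had 9.87 normalized counts in KO Control replicate 2 and at most 1.99 elsewhere.

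Products of activated monocytes were mostly near the floor. Of 30 cytokine genes 20 had a mean under 10, where 39.5% of all genes did, and IL2 and CCL4 were listed at 0. TGFB1 stood at 6034 ± 1345 per kilobase and the chemokine CCL5 at 2754 ± 623. IL1B, the main inflammasome cytokine, had 76.1 and 105 in KO Control, 74.6 and 97.5 in shRNA Control and 50.9 in WT. TNF had 187 and 27.6 in KO Control, 105 and 47.8 in shRNA Control and 76.3 in WT. For TNF the libraries of 1 kind differed more than the kinds did. IL6 was read in KO Control replicate 2 only, at 2.63, and IL10 had 12.9 in shRNA Control replicate 1 and at most 3.29 elsewhere. Of 30 interferon-stimulated genes 8 had a mean of at least 1000, near the 28.9% of all genes, and 6 were under 10, where 39.5% of all genes were. BST2, which tethers virus particles, had 18896 and 11249 in KO Control, 17034 and 11929.7 in shRNA Control and 18566 in WT. IFITM3, an antiviral membrane protein, had 20.6 and 42.8 in KO Control, 32.8 and 8.43 in shRNA Control and 15.9 in WT, far below BST2 per kilobase (17.9 ± 10.2 against 13883 ± 3287).

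The phagocyte oxidase was read in part. CYBA, its small membrane subunit, stood at 5212 ± 1181 per kilobase and the cytosolic subunit NCF4 at 7049 ± 1716, whereas the catalytic subunit CYBB stood at 10.4 ± 4.0. CYBB had 45.6 and 61.2 in KO Control, 21.9 and 36.5 in shRNA Control and 64.7 in WT. Of the class II histocompatibility genes HLA-DPA1 and HLA-DQB1 were highest in shRNA Control replicate 1, at 9.95 and 5.97 normalized counts. HLA-DQA1 was read in WT only, at 2.12, and HLA-DPB1 in shRNA Control replicate 1 only, at 0.995. HLA-DRB1 had a mean of 454 ± 164 and HLA-DRB5 of 239 ± 41.4, and reads of these related genes may be split between them. CIITA, the activator of class II genes, had 280.4 and 369.9 in KO Control, 372 and 389.8 in shRNA Control and 388 in WT, and CD74, the class II chaperone, stood at 607 ± 146 per kilobase.

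All 20 cell cycle genes had a mean of at least 100 and 17 of at least 1000, where 50.4% and 28.9% of all genes did. The replication clamp PCNA stood at 14563 ± 2697 per kilobase and MCM2 at 5059 ± 818. MCM2, whose upstream letters are given above, had 28461 and 23582 in KO Control, 25943 and 18440.4 in shRNA Control and 27577 in WT. Of the D cyclins CCND3 stood at 1322 ± 352 per kilobase, CCND2 at 64.9 ± 17.2 and CCND1 at 31.8 ± 9.97. Of 23 glycolysis genes 16 were at 1000 or more, where 28.9% of all genes were. GAPDH, a glycolytic enzyme often used for scaling, had 115355 and 123957 in KO Control, 76415 and 51805 in shRNA Control and 73956 in WT, with both KO Control libraries highest. Of 20 genes widely used for scaling 9 were steady, near the 48.2% of all genes with a mean of at least 100. RPLP0, a ribosomal stalk protein, had 59489 and 81058 in KO Control, 32723 and 25457 in shRNA Control and 20379 in WT. TUBB, a tubulin, had 33204 and 34826 in KO Control, 14335 and 10309 in shRNA Control and 8958 in WT. For RPLP0 and TUBB both KO Control libraries stood above the others, with CVs of 58.6% and 62.3%. ACTB was steady with a CV of 14.7%, and the purine enzyme HPRT1 was the steadiest of these genes with 6.24%.

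Genes with no read in any of the 5 libraries numbered 1481 (7.25%), and 2767 (13.5%) had none when KO Control replicate 2 was left out. A 0 over the 192476138 reads allows up to 0.0156 CPM by the limit of 3 counts, for counting error only. Silence was uncertain for many of them. Of 1367 such genes with annotated exons, 591 (43.2%) either share at least 90% of their windows with another gene or overlap another gene over at least 50% of their exons. Neither was found for the other 776. Shared windows could be measured for 1273 of the genes at 0, and genes without that measure were counted as not shared. Immunoglobulin and T cell receptor segments made up 234 of the genes at 0, and read-through names 75. Among 20 gene families counted by name, sensory and barrier families had many members at 0. Of 415 olfactory receptor genes 413 had a mean under 10, and 99 were listed at 0, or 236 without KO Control replicate 2. Of 94 keratin-associated protein genes 48 were at 0, or 66 without that library, and of 24 bitter taste receptor genes 12, or 13 without it. Of 508 zinc finger genes 8 were at 0, or 32 without KO Control replicate 2, and of 48 proteasome genes 0, or 1 without it.

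Promoter letters differed between silent and active genes. RefSeq windows from 250 bases before to 50 after the gene start were matched by symbol for 15309 genes; ELANE, LYZ, MPO, SPI1 and ACTB were not among them. The median number of CG pairs in a window was 5 for genes at 0, 11 for genes with a mean of 1 to 10, 25 for 100 to 1000 and 30 for 10000 and over, against 22 for all matched genes. GGGCGG, on either strand, was in 77.3% of windows of genes at 10000 and over and in 31.1% of those of genes at 0, against 59.2% of all. TATAAA, on either strand, was in 7.83% and 23.5% of the same classes, against 9.6% of all. GAGGAAGT was in 2.81% and 1.65%, against 2.53% of all. These motifs depend on base composition, and the shares are a description. The window of MCM2 held 35 CG pairs, those of PRTN3 and AZU1 9 each and that of ALB 4. Primary granule genes were high genes with few CG pairs, at a median of 7 over the 8 that matched. Of these 8 windows GAGGAAGT was in 1 and GGGCGG in 4, so PRTN3 is not typical of them for GAGGAAGT.

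Spread between libraries was described over the 10300 genes with a mean of at least 100. The median CV was 20.4%, with 5th and 95th percentiles of 7.75% and 40.4%. There were 4969 steady genes (48.2%), 218 with a CV over 50% (2.12%) and 10 with a CV over 100% (0.0971%). Counting alone gives a median CV of 4.62% at means of 100 to 1000 and 1.96% at 1000 to 10000, and 39 genes lay within the CV of counting. Steady genes made up 43.6% of those at means of 100 to 1000, 52.6% at 1000 to 10000 and 44.6% at 10000 and over. The steadiest gene was LRRFIP2, a signalling adaptor gene, with 1099 and 1118 in KO Control, 1084 and 1106 in shRNA Control and 1083 in WT. TMED2, a cargo receptor of the secretory pathway, had 4972 and 4896 in KO Control, 5045 and 5024 in shRNA Control and 4902 in WT. The chaperone partner BAG5, the replication factor GINS1, the coenzyme Q enzyme PDSS2, BTBD1, the mitochondrial translation factor GUF1, the ubiquitin protease USP3, AP1AR and the ubiquitin ligase scaffold CUL2 completed the 10 steadiest, with CVs from 1.47% (BAG5) to 2.48% (CUL2). CVs of this size are near or below the medians from counting given above. The order of these genes is therefore a description of these 5 libraries and not a property of the genes.

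Each of the 10 genes over 100% had 1 or 2 libraries apart. NTRK2, FAT1 and IGLL1 were high in shRNA Control replicate 1, of which NTRK2 and FAT1 are within the set of 68. TOMM7, of the mitochondrial import pore, had 690 and 3636 in KO Control, 565 and 468 in shRNA Control and 517 in WT. RPL38, a ribosomal protein gene, had 3574 and 12557 in KO Control, 1864 and 1324 in shRNA Control and 1478 in WT. TIMM10, a chaperone of mitochondrial import, had 337 and 1417 in KO Control, 328 and 183 in shRNA Control and 259 in WT. For TOMM7, RPL38 and TIMM10, KO Control replicate 2 was the high library. EEF1AKMT4, a methyltransferase for an elongation factor, had 230.4 and 346 in KO Control, 52.7 and 23.4 in shRNA Control and 35.0 in WT, high in both KO Control libraries; it overlaps the read-through gene EEF1AKMT4-ECE2, and reads of the pair may be split. KCP, a secreted regulator of bone morphogenetic proteins, had 27.2 and 25.7 in KO Control, 32.8 and 147 in shRNA Control and 392.2 in WT, and WT was the highest, as for CD36 and FCER2. Without KO Control replicate 2 and shRNA Control replicate 1, 3 genes were over 100%. Spread was only weakly related to exon length, with a Spearman coefficient of -0.11 over 10291 genes of the same 5 libraries. A CV over 50% was found for 15.7% of 83 genes with 500 to 1000 bases of exon, for 0 of 6 shorter ones and for 1.12% of 2312 genes with 8000 or more, and the median exon length was 3476 bases for genes over 50% and 5466 for steady genes. Genes with 1000 to 2000 bases lay at a median log2 value of 0.15 and -0.22 from their mean in KO Control, 0.14 and -0.14 in shRNA Control and -0.05 in WT.

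**Figure D5:**
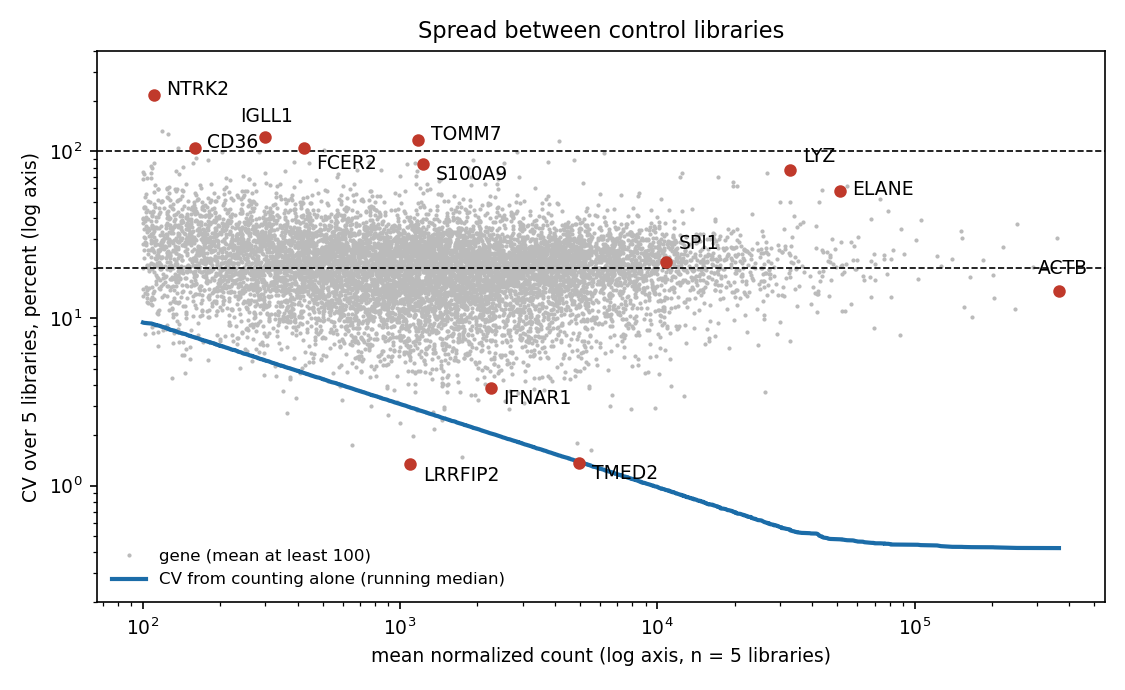
CV over the 5 control libraries in percent (log axis) against the mean normalized count (log axis, n = 5) for genes with a mean of at least 100, with dashed lines at 20% and 100% and a blue line for the running median of the CV from counting alone. Most genes lie above the blue line; LRRFIP2 (1.34%) lies at the bottom and NTRK2 (216%) at the top.

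The kinds of control were compared by setting KO Control against shRNA Control, with 2 libraries each. The limma test on log2(normalized count + 1) called 0 of 12332 genes (0%) at a Benjamini-Hochberg adjusted p under 0.05, with 703 at an unadjusted p under 0.05. The edgeR quasi-likelihood test on recovered reads called 0 as well, with 766 at an unadjusted p under 0.05, and DESeq2 called 96 (0.778%), 56 higher and 40 lower in KO Control, with 830 at an unadjusted p under 0.05. When 1 library was left out, which leaves a kind with a lone library that is assumed to vary like the others, limma called 134 genes without KO Control replicate 1, 67 without KO Control replicate 2, 13 without shRNA Control replicate 1 and 47 without shRNA Control replicate 3. Of the genes described above whose kinds did not overlap, several passed by DESeq2 and none by limma or edgeR. ELANE had a log2 difference of -1.80 ± 0.40 (SE), with an adjusted p of 0.318 by limma, 0.32 by edgeR and 9.64e-05 by DESeq2, and of 0.00615 to 0.999 by limma with 1 library left out. TUBB, higher in both KO Control libraries, had an adjusted p of 0.366 by limma, 0.354 by edgeR and 0.000821 by DESeq2. HOXC4 had a log2 difference of -1.29 ± 0.28, with an adjusted p of 0.318 by limma, 0.354 by edgeR and 0.012 by DESeq2. RPLP0 had one of 1.27 ± 0.38, with an adjusted p of 0.573 by limma, 0.512 by edgeR and 0.0132 by DESeq2. For TUBB, HOXC4 and RPLP0 the adjusted p by limma lay between 0.0608 and 1 with 1 library left out. The granule genes PRTN3 and AZU1 had an adjusted p of 0.524 each by limma, of 0.465 and 0.488 by edgeR, and of 0.00825 and 0.0157 by DESeq2. IRF8, with a log2 difference of -0.86 ± 0.29, passed by none of the 3 tools (adjusted p = 0.685 by limma, 0.665 by edgeR and 0.212 by DESeq2). The 3 genes of lowest p were looked at after their values were seen, and each had an adjusted p of 0.196 by limma and 0.259 by edgeR, while DESeq2 gave 1.17e-06 for SIX5, 6.7e-06 for ABCF2 and 2.94e-06 for SCNM1. With 1 library left out the limma adjusted p ranged up to 0.0174 for SIX5, 0.0333 for ABCF2 and 0.118 for SCNM1. SIX5, a homeobox gene, had 148 and 94.8 in KO Control, against 673 and 642 in shRNA Control, and 481 in WT (log2 difference -2.46 ± 0.33). ABCF2, of the ABC protein family, whose reads may be split with the read-through gene ABCF2-H2BK1, had 836 and 654 in KO Control, against 186 and 139 in shRNA Control, and 125 in WT (log2 difference 2.20 ± 0.32). SCNM1, a splicing factor gene, had 2039.7 and 2210.5 in KO Control, against 597 and 487 in shRNA Control, and 480.2 in WT (log2 difference 1.97 ± 0.29). In all of them WT stood on the side of shRNA Control.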

How the data were processed

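RNA sequencing of 5 THP1 control libraries was used. The authors deposited a normalized signal per gene and library, a read count divided by a size factor. Per the submitters' processing notes hg38, featureCounts and DESeq2 were used. Neither aligner nor annotation nor strandedness is stated there, and reads of overlapping or near-identical genes may be split between them. All columns of the table were matched to samples (0 unused), and the deposited comparison tables were not used. In each library 100% of values were whole multiples of the value of 1 read within 0.01, which gave back read counts. Pairwise correlations of log2 values between the 5 libraries were 0.965 to 0.982.

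Means, SDs and CVs were taken over the 5 libraries. Exon length is the union of GENCODE release 29 exons (GRCh38), matched by name for 20244 of 20423 genes, and shared sequence was measured in windows of 100 bases between its transcripts. KO Control and shRNA Control were compared with limma 3.58.1 (empirical Bayes with a trend) on log2(normalized count + 1) for genes with a mean of at least 10, which understates the change of low genes. The alternatives were edgeR 4.0.16 and DESeq2 1.42.0 (R 4.3.3) on recovered reads, other scalings, filters and pseudocounts, and leaving out libraries. Simulated data for that comparison (12332 genes) came from a single draw, with independent noise for each gene. At each size 50 genes were changed, none with a mean under 50. There limma recovered 18, 88, 98 and 100% of genes changed by 1, 2, 3 and 4 on the log2 scale and called 0.0659% of unchanged genes. These shares hold for that setting only. In the real libraries SIX5, at a log2 difference of -2.46, was not called by limma.

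The members and the gene lists were chosen with earlier results of these data known. The genes named are the 4 markers, the 20 highest by mean and 10 highest per kilobase, up to 6 of the highest members of each of 44 lists with the lowest above 0 and those at 0, the 10 steadiest and 10 most variable, and the 3 targeted genes. Other genes named, mainly low members of the lists and genes high in 1 library, and the list of 55 receptor tyrosine kinases, were chosen after their values were seen. The limit for a 0 is 3 counts of the total and covers counting error only. A few genes that this rule names are not reported here.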

Additional observations from a re-analysis of the deposited data

Results flagged for a closer look

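Among 231 values tested over the 5 control libraries, 31 had their highest or lowest library farther from the nearest other than 0.71 of the whole range, a limit that chance passes in about 1 in 20 groups. Some of these genes were named because 1 library was high, so the count is not to be read against that share. The extreme library was KO Control replicate 2 for 15 values, shRNA Control replicate 1 for 12, WT for 3 and KO Control replicate 1 for 1. Of 27 such genes 13 had a mean under 10, where a few reads decide the gap.

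KO Control replicate 2 had 49816700 reads in genes, against 36842892 in the next library. It was the highest for TOMM7 (3636), RPL38 (12557) and TIMM10 (1417), and for the sum of the liver genes (91.5). It was also the highest for CSMD3 (37.5), TLR8 (14.5), CLEC7A (9.87), CD34 (9.22), CPA3 (9.22), MS4A1 (7.24), FCGR3A (2.63), IL6 (2.63) and VPREB1 (1.32). The summed level of the interferon regulatory factors and their partners was lowest there, at 30625.5 normalized counts against 41008 for the next library.

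shRNA Control replicate 1 was the highest for NTRK2 (536), ALK (233), EGFR (212), KIT (150.3), FLT3 (142), IRF4 (58.7), FOXA1 (31.8) and the sum of the endothelial genes (404). It was also the highest for CCND1 (238), STAT4 (43.8), IL10 (12.9) and HLA-DPB1 (0.995). WT was the highest for FCER2 (1198), CD36 (456) and HLA-DQA1 (2.12). KO Control replicate 1 was the lowest for CIITA (280.4). The causes of these gaps were not tested.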

How the results depend on the processing

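The count of genes with no read was 1481, and 3559 by a mean under 1. It was 1522 to 2767 when 1 library was left out, with the highest count without KO Control replicate 2, and 3171 without KO Control replicate 2 and shRNA Control replicate 1 (a setting chosen after seeing the data). Genes at a mean of at least 10 numbered 12270 to 12430 and those of at least 1000 numbered 5874 to 5909 when 1 library was left out, and the 100 highest held 22.3 to 22.9% of counts. Steady genes numbered 3052 with a minimum mean of 1000 and 4477 to 6093 with 1 library left out. Genes with a CV over 100% numbered 126 with a minimum mean of 10, 2 with 1000, 4 with a CV from the median absolute deviation, 3 without both libraries and 8 to 12 with 1 left out. The median CV was 19.9% with equal totals, 20.3% with TMM scaling, 21.9% and 19.7% with minimum means of 10 and 1000, 17.3% from the median absolute deviation, 18.7% without both libraries and 17.7 to 21.7% with 1 left out. Between KO Control and shRNA Control DESeq2 called 96 genes, and limma called 13 to 134 with 1 library left out. The cause of these changes was not tested. List medians stayed within 1 SD in 88 of 88 cases under other scalings, in 216 of 220 with 1 library left out and in 39 of 44 without both libraries. With coding length in place of exon length, SPI1 lay at percentile 97.7, CD33 at 79.2 and MPO at 41.2. With the longest transcript in place of the exon union, a setting that was not planned, SPI1 lay at percentile 98.9, CD33 at 72.9 and MPO at 42.9. No paired analysis was possible because KO Control and shRNA Control share only replicate number 1. Depth limits statements on genes with means of a few normalized counts, where 1 read is worth 0.658 to 1.09.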

Other observations

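Further members of the lists are given as the mean normalized count per kilobase ± SD over the 5 control libraries. Of the S100 genes, which encode small calcium-binding proteins, S100A11 stood at 12686 ± 1461 and S100A6 at 10436 ± 1171, both with a CV under 20%. Of the Krüppel-like and SP factors KLF16 stood at 2043 ± 635 and SP3, which binds GC boxes as Sp1 does, at 358 ± 30.5. The developmental factor SOX4 stood at 745 ± 45.6, with a CV of 6.13%. CDKN1B, which encodes the cell cycle inhibitor p27, stood at 1854 ± 384.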
